A study of Mus musculus with 8 samples.

Results

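NKG2D is an activating receptor of natural killer (NK) cells and of some T cells, and the genes described here are its mouse ligands, the receptor itself and its signalling adaptor. The list has 10 genes: the ligands Raet1a to Raet1e, H60b, H60c and Ulbp1, the receptor gene Klrk1 and the adaptor gene Hcst. Members were taken by symbol, from array probe sets annotated with exactly 1 symbol. By that rule 5 of the 10 were measured, with 27 probe sets in all, out of 19515 genes in the series: Raet1e by 3 probe sets, Raet1d by 2, H60b by 4, Klrk1 by 13 and Hcst by 5. Probe sets annotated with several symbols were not used for the members. Raet1a, Raet1b, Raet1c, H60c and Ulbp1 were not analysed here. The family was chosen because Raet1e had the 12th most negative difference of all genes between the 2 groups compared below, so the differences of the members are given as a description and without a test.

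NKG2D ligands are relatives of MHC class I that healthy cells carry at low levels and that appear on dividing, infected, damaged or transformed cells. The RAE-1 proteins encoded by the Raet1 genes sit on the cell surface through a lipid anchor, and inbred mouse strains differ in which Raet1 copies they carry. Binding to NKG2D signals through DAP10, the product of Hcst, and triggers killing or cytokine release, and liver is rich in NK cells.

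The arrays measured RNA of whole liver from 8 male mice aged 6 weeks, 1 array per mouse. In 4 mice (Tak1/Casp8) the kinase TAK1 and caspase 8, which triggers apoptosis downstream of death receptors, were both deleted in liver parenchymal cells. The other 4 (Tak1/Rip3) had the same deletion of TAK1 and a knockout of Rip3, the necroptosis kinase, written in the labels as Rip3-/-. The labels do not limit the Rip3 knockout to liver parenchymal cells, so other cells of the liver may also differ in Rip3 between the groups. TAK1 was thus deleted in all 8, and livers with TAK1 intact were not analysed here. The comparison asked which genes apoptosis and programmed necrosis regulate differently in liver. Differences are the Tak1/Casp8 value less the Tak1/Rip3 value. The sources used here name neither the driver of the deletions nor the mouse strain. Values are log2 intensities normalised by RMA, and a gene's value is the median over its probe sets.

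Casp8 differed by -1.31 and Ripk3, the gene of Rip3, by 0.98, each lower in the group that lacks it, and Map3k7, the TAK1 gene, by -0.082. The Ripk3 difference was -0.036 with its brightest probe set alone. Array medians lay between 8.06 and 8.16 and lower quartiles between 6.47 and 6.52. In limma 1302 of 19515 genes (6.67%) had an adjusted p under 0.05, 511 higher (2.62%) and 791 lower (4.05%) in Tak1/Casp8 livers. Leaving out Tak1/Casp8 replicate 2 gave 763 such genes, and leaving out replicate 1 or replicate 4 of Tak1/Rip3 gave 700 and 734. The 10 hepatocyte markers averaged 12.98 to 13.07 over the Tak1/Casp8 arrays and 12.89 to 12.99 over the Tak1/Rip3 arrays. Of them 1 was called (Serpina1a, 0.96 ± 0.21 SE), a call lost in 5 of 19 alternatives. Serpina1a has 1 probe set, and its relative Serpina1c, described below, ran the other way (-2.71).

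The ligand genes Raet1e and Raet1d were lower in Tak1/Casp8 livers, whereas the ligand H60b, the receptor and the adaptor had overlapping groups. Raet1e, which encodes RAE-1 epsilon, had 6.48, 6.43, 5.89 and 6.44 in the Tak1/Casp8 livers, against 8.26, 8.91, 8.94 and 8.56 in the Tak1/Rip3 livers. The groups lay far apart, with every Tak1/Casp8 value under the lower quartile of its own array and every Tak1/Rip3 value above it. The means were 6.31 ± 0.28 in Tak1/Casp8 and 8.67 ± 0.32 in Tak1/Rip3 livers (SD, n = 4 each), a difference of -2.36 ± 0.18 (SE) or 5.12-fold. The Tak1/Casp8 values are dim, so the size of the fold is uncertain.

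Raet1d, which encodes RAE-1 delta, had 9.00, 9.22, 8.15 and 9.63 in the Tak1/Casp8 livers, against 10.94, 10.33, 10.85 and 11.09 in the Tak1/Rip3 livers. The groups did not overlap here either. The means were 9.00 ± 0.63 in Tak1/Casp8 and 10.80 ± 0.33 in Tak1/Rip3 livers (SD, n = 4 each), a difference of -1.80 ± 0.28 (SE) or 3.49-fold. All Raet1d values lay above the lower quartile, so this difference does not rest on dim signals. Tak1/Casp8 replicate 3 was the lowest of its group in both genes, in Raet1e through the third probe set only. Among the Tak1/Rip3 livers, replicate 1 was lowest in Raet1e and replicate 2 in Raet1d. In bulk tissue fewer cells that express a gene and less RNA per cell cannot be told apart.

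**Figure D1:**
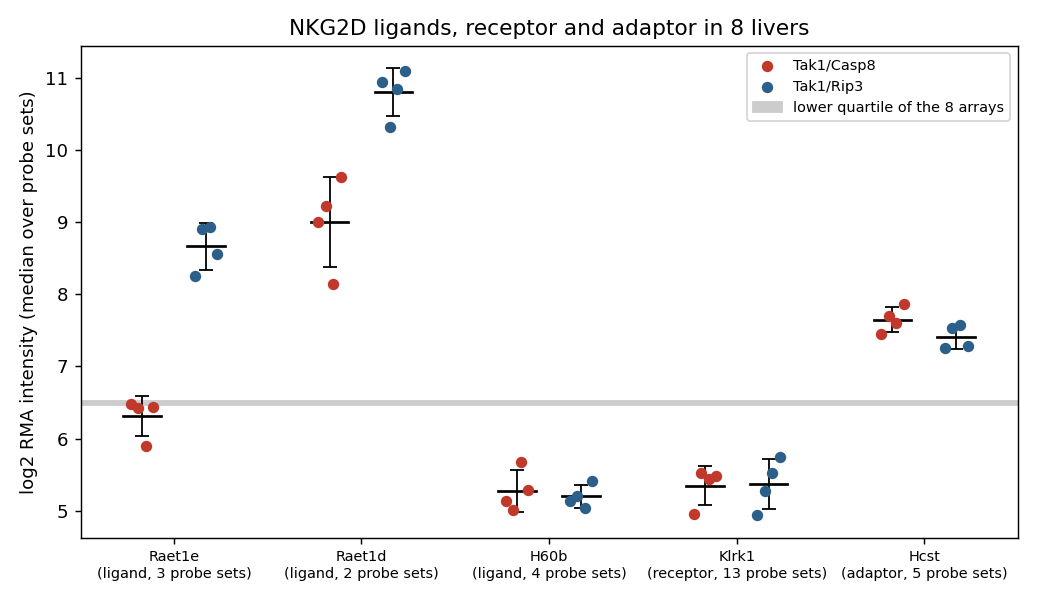
Log2 RMA intensity (vertical axis, median over probe sets) of the 5 measured genes in each liver, with Tak1/Casp8 in red left of Tak1/Rip3 in blue; horizontal bars are group means and error bars SD (n = 4 each), and the grey band is the lower quartile of the arrays (6.47 to 6.52). The groups are apart for Raet1e and Raet1d and overlap for H60b, Klrk1 and Hcst.

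The single probe sets ran in the same direction within both Raet1 genes. The first Raet1e probe set had 6.48, 7.50, 6.97 and 6.46 in Tak1/Casp8 livers, against 9.40, 9.56, 9.91 and 9.65 in Tak1/Rip3 livers, a difference of -2.78 ± 0.24 (SE, n = 4 per group). The dimmest, the second, had 3.48, 5.61, 3.85 and 3.13 in Tak1/Casp8 and 5.82, 6.73, 6.79 and 6.64 in Tak1/Rip3 livers, and the third differed by -2.34 ± 0.20. The 2 groups were apart in all 3, by a narrow margin in the second. The Raet1d probe sets differed by -1.68 ± 0.37 and -1.93 ± 0.27, also with groups apart.

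RefSeq (GRCm38.p6) gives 2 starts for Raet1e and 1 for Raet1d, and the window from 250 bases before to 50 after the start is printed for these because the Raet1 genes carry the differences. In the best alignment without gaps, over 298 bases, the second Raet1e window and the Raet1d window had 295 bases in common (99.0%). The 3 bases that differ are in capitals, as T128C, C180G and C195A (Raet1e base, position from 1 at the 5′ end of the Raet1e window, Raet1d base).
Raet1e second start, chr10:22173247-22173546, plus strand: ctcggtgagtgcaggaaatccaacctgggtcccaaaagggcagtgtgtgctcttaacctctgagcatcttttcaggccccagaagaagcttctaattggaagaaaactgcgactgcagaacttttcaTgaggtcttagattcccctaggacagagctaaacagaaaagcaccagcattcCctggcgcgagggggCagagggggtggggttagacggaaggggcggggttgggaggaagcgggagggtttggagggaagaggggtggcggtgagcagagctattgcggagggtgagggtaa
Raet1d, chr10:22361644-22361943, plus strand: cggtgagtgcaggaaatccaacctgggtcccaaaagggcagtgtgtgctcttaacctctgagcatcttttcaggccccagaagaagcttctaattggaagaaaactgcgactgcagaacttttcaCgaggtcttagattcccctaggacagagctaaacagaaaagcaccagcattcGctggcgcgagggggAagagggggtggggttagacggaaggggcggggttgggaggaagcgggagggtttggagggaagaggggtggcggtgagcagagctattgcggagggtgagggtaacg
The window of the first Raet1e start had 28.1% of 292 bases in common with that of Raet1d in the best such alignment, and capitals in it mark the GC box GGGCGG on either strand.
Raet1e first start, chr10:22158319-22158618, plus strand: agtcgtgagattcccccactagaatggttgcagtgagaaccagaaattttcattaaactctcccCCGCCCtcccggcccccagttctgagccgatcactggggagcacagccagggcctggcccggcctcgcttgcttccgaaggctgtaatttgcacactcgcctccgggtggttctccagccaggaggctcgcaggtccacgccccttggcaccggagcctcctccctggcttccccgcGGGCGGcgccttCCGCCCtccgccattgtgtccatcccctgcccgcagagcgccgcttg

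GGGCGG occurred once in the second Raet1e window, 31 bases before the start, and once in the Raet1d window, 33 bases before it, and 35.7% of the 32851 RefSeq windows hold it. The first Raet1e window had 3 such matches, none of them overlapping. CCAAT occurred once in the second Raet1e and once in the Raet1d window, in each on the minus strand (37.4% of all windows, with both strands searched). None of the E2F words TTTCCCGC, TTTCGCGC, TTTGCCGC and TTTGGCGC (2.26% of all windows), the AP-1 word TGANTCA (7.81%) or the NF-kB motif (4.51%) occurred in the 3 windows, with both strands searched. A match, or the lack of one, is a description of the letters only. Most RefSeq windows lack the E2F, AP-1 and NF-kB words, so their absence here says little about binding sites. Raet1 genes are close copies, so probes of one may also bind RNA of the other, and the 2 values are uncertain as separate measurements. Probe positions were not used here, and the part of shared probes was not tested.

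H60b, the third measured ligand, was dim and had similar values in both groups. It had 5.13, 5.01, 5.68 and 5.28 in Tak1/Casp8 livers, against 5.13, 5.21, 5.04 and 5.42 in Tak1/Rip3 livers, a difference of 0.076 ± 0.15 (SE, n = 4 per group). All values lay under the lower quartile of the arrays, where no difference may be detectable. Its 4 probe sets differed by -0.052 to 0.21 and all overlapped.

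Klrk1, the NKG2D receptor gene, was also under the lower quartile in every liver. It had 4.95, 5.52, 5.44 and 5.47 in Tak1/Casp8 livers, against 4.93, 5.27, 5.52 and 5.75 in Tak1/Rip3 livers, a difference of -0.022 ± 0.18 (SE, n = 4 per group). Its 13 probe sets disagreed, with 9 lower and 4 higher in Tak1/Casp8 livers and differences of -0.70 to 0.68. The brightest, the fifth, was the only one of the 13 whose groups were apart: it had 7.57, 7.82, 7.83 and 7.54 in Tak1/Casp8, against 8.22, 8.35, 7.85 and 8.17 in Tak1/Rip3 livers. That probe set differed by -0.46 ± 0.14, so the gene's difference moved to that value when its brightest probe set stood for it. The margin between its groups was small, and it rests on Tak1/Rip3 replicate 3, the lowest of that group.

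Hcst, whose product DAP10 couples NKG2D to phosphoinositide 3-kinase, had 7.44, 7.70, 7.60 and 7.86 in Tak1/Casp8 livers, against 7.25, 7.53, 7.58 and 7.29 in Tak1/Rip3 livers. The groups overlapped, and the difference was 0.24 ± 0.12 (SE, n = 4 per group). All 5 probe sets were higher in Tak1/Casp8 livers, by 0.072 to 0.45, and none had groups apart.

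Counted by the threshold used for all genes, 2 of the 5 measured members were called, both lower, beside 6.67% of all genes (4.05% lower). Groups were apart in the same 2, beside 14.6% of all genes (8.31% lower). Of the 27 probe sets 3 were called lower, beside 1.63% of all probe sets (1.09% lower), and 6 had groups apart with lower values, beside 11.4% (6.53% lower): the 3 of Raet1e, the 2 of Raet1d and the fifth of Klrk1. By the gene-by-gene unequal-variance test Raet1e was called and Raet1d was not. Since the members were chosen from this comparison, nothing is read from these counts.

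**Figure D2:**
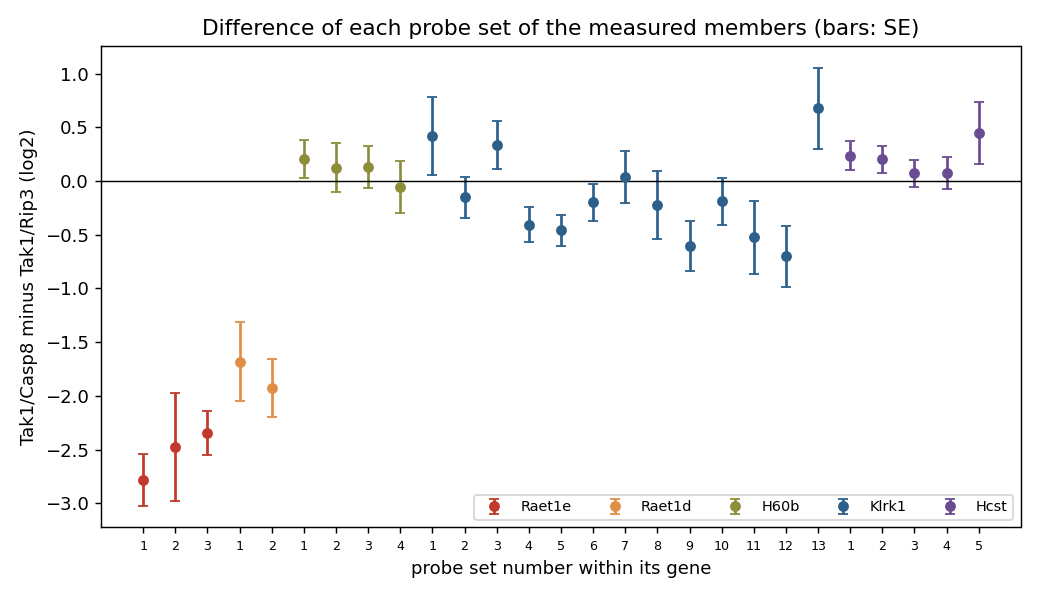
Difference in log2 intensity, Tak1/Casp8 minus Tak1/Rip3 (vertical axis), of each of the 27 probe sets (horizontal axis, numbered within each gene), with SE from the fit over all probe sets. The 5 Raet1 probe sets lie between -2.78 and -1.68, and the other 22 between -0.70 and 0.68.

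Raet1e, H60b and Raet1d are neighbours on chromosome 10, and the other genes measured around them had differences nearer 0 than the Raet1 genes. Of the 5 measured genes on each side of Raet1e, 2 are H60b and Raet1d, and the other 8 differed by -0.57 to 0.23. H60b lies between Raet1e and Raet1d in the RefSeq order. Among the 8, Tcf21, a transcription factor of mesenchymal cells, had the only limma call (difference -0.57 ± 0.14 SE, n = 4 in each group, adjusted p = 0.0364), a call lost in 9 of 19 alternative settings, with adjusted p = 0.0204 to 0.170 over them. Beside Klrk1 on chromosome 6, in the cluster of NK cell lectin-like receptors, limma called 0 of 10 neighbours. There 2 had an unadjusted p under 0.05 and 0 were called by the gene-by-gene unequal-variance test, and the differences ran from -0.55 (Klri1) to 0.31 (Gabarapl1, an autophagy protein gene). Gabarapl1 had a limma adjusted p = 0.0502 and was called in 6 of 19 alternatives (down to 0.0141). Klri1 was called in 2 of 17 and was at 0.34 with its brightest probe set, and Klrd1 and Olr1 were called in 1 each.

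**Figure D3:**
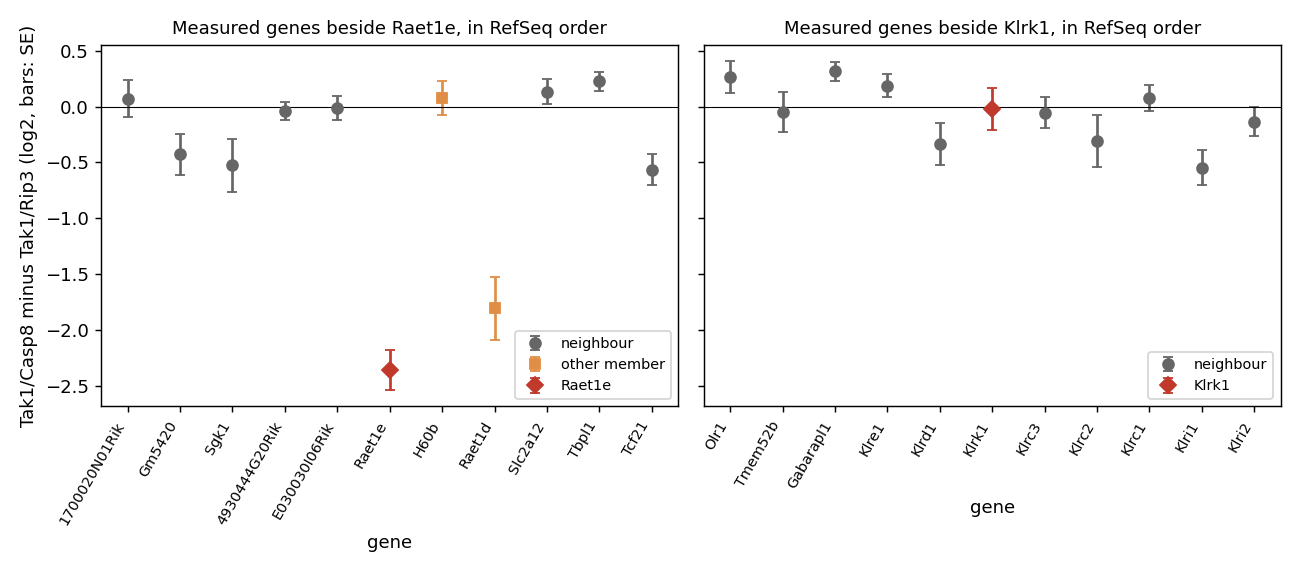
Difference in log2 intensity, Tak1/Casp8 minus Tak1/Rip3, with SE (vertical axis) of the 5 measured genes on each side of Raet1e (left) and Klrk1 (right), in RefSeq order (horizontal axis). Raet1e (-2.36) and Raet1d (-1.80) stand below their neighbours, which lie between -0.57 and 0.23.

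The pattern over the 8 arrays most like that of Raet1e was sought by the root mean square distance between mean-centred log2 values, leaving out unnamed transcripts. The 5 nearest genes were Serpina1c, an alpha-1 antitrypsin gene (distance 0.30), Erbb4, a receptor for neuregulins (0.32), Slc22a7, an organic anion transporter (0.34), Mmd2 (0.35) and Mmp12, macrophage elastase (0.41). They differed by -2.71, -2.19, -1.99, -2.43 and -2.09 on the log2 scale, in the order just given. Serpina1c has near-identical copies and only 2 probe sets, and with the brighter of them it differed by -0.086. Erbb4 differed by -0.93 with the brightest of its 28 probe sets. Raet1d came 25th, at a distance of 0.51. The measure selects genes with a group difference of like size, so those differences are a description.

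**Figure D4:**
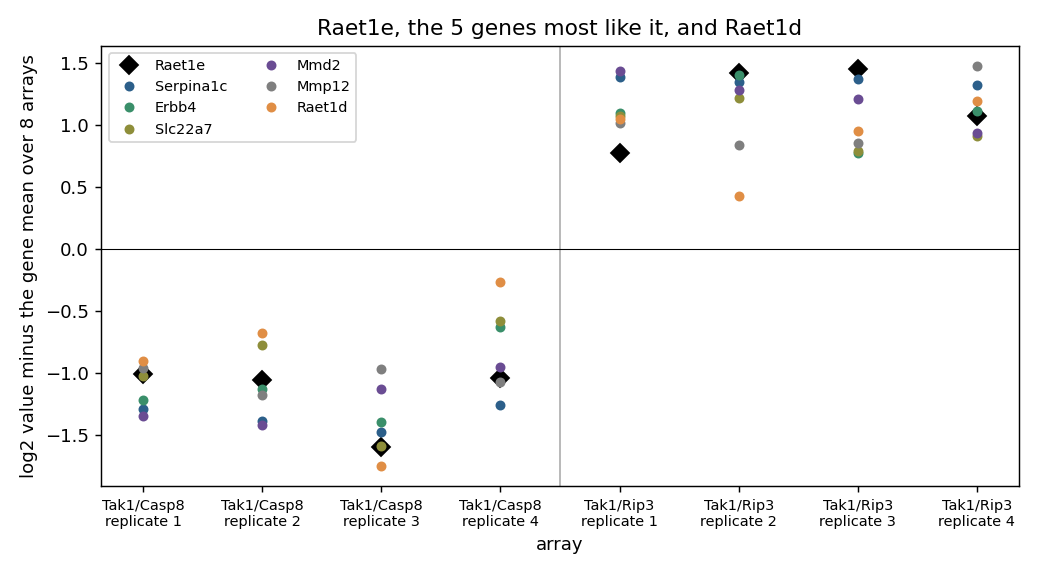
Log2 value minus the gene's mean over the 8 arrays (vertical axis) in each array (horizontal axis) for Raet1e (black diamonds), the 5 genes most like it and Raet1d. In all 7 genes the Tak1/Casp8 values lie below 0 and the Tak1/Rip3 values above it, and Raet1d is nearest 0 in Tak1/Casp8 replicate 4 (-0.27).

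Cells that carry the receptor were looked for through 25 genes of NK cell receptors and identity. In limma none passed the test (0 of 25, with 7 at an unadjusted p under 0.05 and 0 called by the gene-by-gene unequal-variance test), although 20 of the 25 differences were negative, with a median of -0.20 against 0.012 over all genes. The mean level of the list was 5.50 to 5.69 over the Tak1/Casp8 arrays and 5.71 to 5.81 over the Tak1/Rip3 arrays, apart by little and under the lower quartile of the arrays. Klrb1f, a lectin-like NK receptor, differed by -0.52 ± 0.16 and Nkg7, a cytotoxic granule protein gene, by -0.32 ± 0.11 (SE, n = 4 in each, adjusted p = 0.0937 and 0.111 by limma). With the mean over probe sets Klrb1f passed (adjusted p = 0.0113 by limma). With the brightest probe sets Klrb1f differed by -0.23 and Nkg7 by -0.10, neither of them called. The NK receptor gene Ncr1, a defining marker, differed by -0.36 ± 0.14, and Eomes, an NK cell transcription factor, by -0.025 ± 0.12, neither of them called. These 2 were named after their values were seen.

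Downstream of the receptor, 1 of 12 signalling genes was called, beside 6.67% of all genes, so nothing is read from the count. Zap70, a kinase of T and NK cell receptor signalling, was lower in Tak1/Casp8 livers (6.80 ± 0.29 against 7.45 ± 0.11 in Tak1/Rip3 livers, SD, n = 4 each, difference -0.65 ± 0.14 SE, limma adjusted p = 0.0234). The difference was 0.29 with its brightest probe set, and Zap70 was not called when replicate 1 or 3 of Tak1/Casp8, or replicate 1 or 4 of Tak1/Rip3, was left out (adjusted p = 0.0503 to 0.0747), nor by the gene-by-gene unequal-variance test (0.170). The other adaptor of mouse NKG2D, DAP12 (Tyrobp), differed by -0.15 ± 0.25 (named after its values were seen), and the list's median difference was -0.020. Of 11 cytotoxic effectors limma called 0, with 0 at an unadjusted p under 0.05 and 0 by the gene-by-gene unequal-variance test. Their median was -0.12, with the granzyme gene Gzmb at 0.27 ± 0.17 and the death ligand gene Fasl at -0.26 ± 0.15.

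Among 16 ligands of other NK cell receptors and relatives of MHC class I, 2 were called, both higher in Tak1/Casp8 livers, beside 2.62% of all genes. These 2 ran the other way from Raet1e and Raet1d. H2-K1, a classical class I gene that inhibits NK cells through Ly49 receptors, was at 12.19 ± 0.08 against 11.71 ± 0.05 in Tak1/Rip3 livers (SD, n = 4 each, difference 0.48 ± 0.09 SE, limma adjusted p = 0.00995). With the brightest probe sets H2-K1 was no longer called (adjusted p = 0.186), and class I genes have close copies. Azgp1, a secreted class I relative, was higher by 0.39 ± 0.10 (adjusted p = 0.0436), a call lost in 8 of 19 alternatives. The list's median was 0.087, with 12 differences positive and 4 negative. The DNAM-1 ligand genes Pvr and Nectin2 differed by -0.17 ± 0.16 and 0.18 ± 0.12 (named after their values were seen).

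Known regulators of NKG2D ligands were measured next: in mouse cells E2F factors of the cell cycle drive Raet1 transcription, and the DNA damage kinases ATM, ATR and CHK1 raise ligand levels. Of 17 such genes limma called 0, with 5 at an unadjusted p under 0.05 and 0 by the gene-by-gene unequal-variance test, and the median was -0.10. Chek1, the CHK1 gene, differed by -0.92 ± 0.25 and Chek2 by -0.50 ± 0.14 (SE, n = 4 in each, adjusted p = 0.0564 and 0.0623 by limma). Chek1 passed in 6 of 18 alternatives and Chek2 in 3 of 18. With their brightest probe sets Chek1 differed by only -0.23 and Chek2 by -0.26, neither of them called. E2f1 differed by -0.47 ± 0.20, E2f2 by -0.25 ± 0.09, E2f3 by -0.27 ± 0.14 and E2f4 by 0.028 ± 0.12. The kinase genes Atm and Atr differed by 0.053 ± 0.14 and -0.13 ± 0.15. None of these E2F and kinase genes was called, and all were named after their values were seen. In the whole list 11 differences were negative and 6 positive.

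The dividing cell list ran in the direction of the Raet1 genes. Of 22 measured, 17 passed the test with lower values, beside 4.05% of all genes, and all 22 differences were negative, with a median of -1.22 against 0.012 over all genes. Examples were the mitotic kinase Plk1 (8.09 ± 0.49 against 9.98 ± 0.39 in Tak1/Rip3 livers, SD, n = 4 each, difference -1.90 ± 0.25 SE, limma adjusted p = 0.00257), the kinase Aurka (-1.40 ± 0.20), the kinesin Kif20a (-2.13 ± 0.31) and the cyclin Ccna2 (-1.93 ± 0.29). The count was 11 with brightest probe sets, where Kif20a (-0.33) and Ccna2 (-0.058) were not called, and 0 in the gene-by-gene unequal-variance test. The mean level of the list was 8.12, 8.05, 7.60 and 8.53 in the Tak1/Casp8 livers, against 9.47, 9.00, 9.15 and 9.32 in the Tak1/Rip3 livers. Within the groups the order was not that of Raet1e or Raet1d throughout. Tak1/Casp8 replicate 3 was lowest of its group in the list and in both genes. In Raet1e that rests on the third probe set (5.89). In the first (6.97) and second (3.85) probe sets replicate 3 was not the lowest of its group. Tak1/Rip3 replicate 1 had the highest dividing cell level of its group and its lowest Raet1e value. Raet1d and the list were both lowest in Tak1/Rip3 replicate 2 and both highest in Tak1/Casp8 replicate 4. Among the Tak1/Rip3 livers Raet1d was highest in replicate 4 and the list in replicate 1. The part of dividing cells in the Raet1 differences was not tested.

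Of 13 p53 and DNA damage targets 3 were called, all lower in Tak1/Casp8 livers, beside 4.05% of all genes. The list's median was -0.41, with 11 differences negative and 2 positive. They were Eda2r, a receptor of the TNF receptor family (-1.19 ± 0.14 SE, n = 4 per group, limma adjusted p = 0.00125), Phlda3, an inhibitor of AKT (-0.98 ± 0.12), and Ccng1, cyclin G1 (-0.42 ± 0.11), which was not called in 11 of 19 alternatives. The gene-by-gene unequal-variance test called 0 of the 13, with adjusted p = 0.0842 for Eda2r and 0.0526 for Phlda3. Cdkn1a, the p21 gene, differed by -0.46 ± 0.21. Fas (0.38 ± 0.15) and Trp53inp1 (0.065 ± 0.12) ran the other way. Cdkn1a, Fas and Trp53inp1 were not called, and were named after their values were seen.

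**Figure D5:**
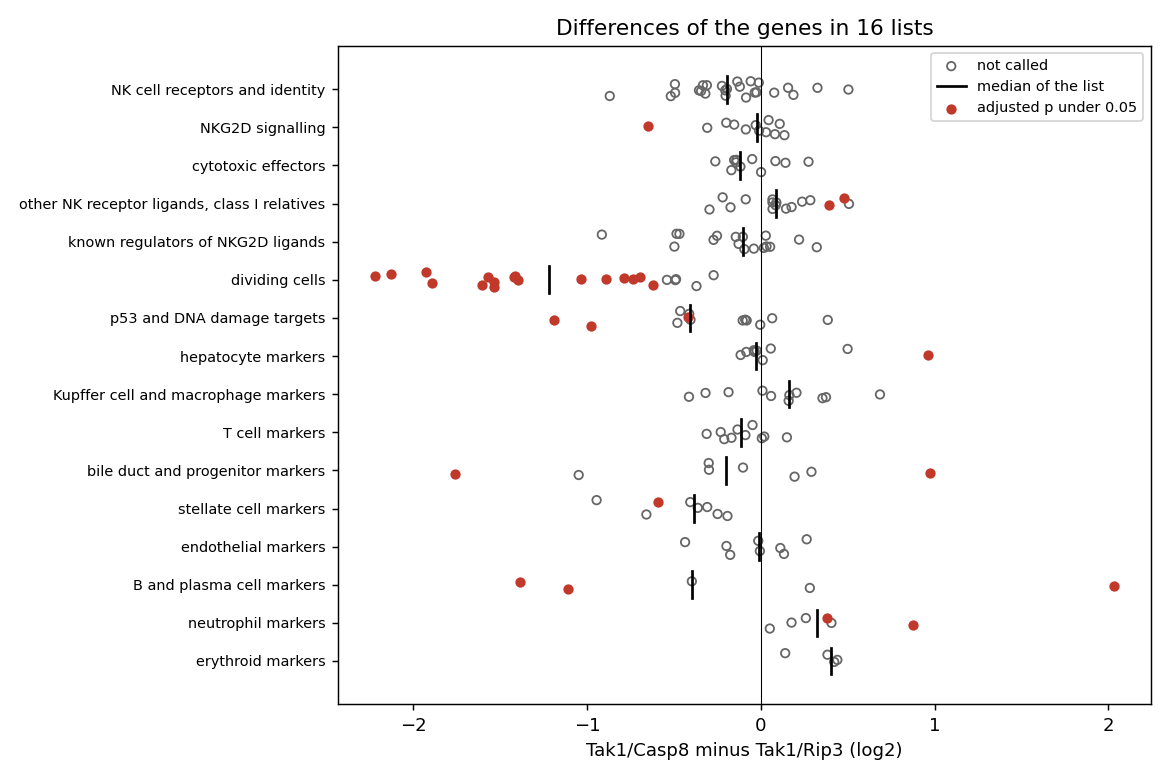
Difference in log2 intensity, Tak1/Casp8 minus Tak1/Rip3 (horizontal axis), of each measured gene of 16 lists (vertical axis, 1 line per list); filled red points had a limma adjusted p under 0.05 and black bars are list medians. The dividing cell genes lie to the left (median -1.22) and the NK cell genes slightly left of 0 (median -0.20), and no NK cell gene was called.

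Markers of other cells that can carry NKG2D or its ligands moved with the groups in part. For the marker counts below, the share called over all genes was 6.67% (4.05% lower and 2.62% higher). Limma called 0 of 10 T cell markers, with 1 at an unadjusted p under 0.05, and the level was 6.54 to 6.68 in Tak1/Casp8 and 6.63 to 6.78 in Tak1/Rip3 livers. It also called 0 of 11 Kupffer cell and macrophage markers (2 unadjusted), 0 of 8 endothelial (2 unadjusted) and 0 of 4 erythroid markers (0 unadjusted). Among these the macrophage gene Itgam (0.69) was called in 4 of 18 alternatives but was at -0.28 with its brightest probe set, and the endothelial gene Lyve1 (-0.44) was called in 2 of 19. The gene-by-gene unequal-variance test called 0 in each of these 4 lists, and their medians were -0.11, 0.16, -0.011 and 0.40, in the order given. Of 8 stellate cell markers Lrat, the retinol-storing enzyme gene, was called lower (-0.59 ± 0.11), and all 8 differences were negative. Their mean level was 9.87 to 10.56 in Tak1/Casp8 and 10.48 to 10.90 in Tak1/Rip3 livers.

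Of 8 bile duct and progenitor markers Prom1 was called lower (-1.76 ± 0.10) and Spp1, osteopontin, higher (0.97 ± 0.20). Their mean level was 8.06 to 8.82 in Tak1/Casp8 livers, against 8.56 to 8.77 in Tak1/Rip3 livers. Of 5 B and plasma cell markers the B cell genes Cd79a (-1.38 ± 0.15) and Ms4a1 (-1.11 ± 0.17) were called lower and the plasma cell gene Jchain higher (2.03 ± 0.25), with a list level of 6.56 to 6.88 in Tak1/Casp8 and 6.67 to 6.91 in Tak1/Rip3 livers. With brightest probe sets Cd79a (-0.44) and Ms4a1 (-0.16) were not called. Both genes were dim: Cd79a averaged 5.09 in Tak1/Casp8 and 6.47 in Tak1/Rip3 livers, and Ms4a1 averaged 4.89 and 6.00. The lower quartiles of the arrays were 6.47 to 6.52, so the sizes of these differences are uncertain. Of 6 neutrophil markers Cxcr2 (0.87 ± 0.16) and Csf3r (0.38 ± 0.10) were called higher. Csf3r lost its call in 12 of 19 alternatives. The list's level was 6.78 to 7.12 in Tak1/Casp8 and 6.39 to 6.71 in Tak1/Rip3 livers. Of the genes called in these 4 lists (stellate, bile duct, B and plasma cell, neutrophil), the gene-by-gene unequal-variance test called Prom1 and Cd79a but not Lrat, Spp1, Ms4a1, Jchain, Cxcr2 or Csf3r. Cxcr2 was also not called without both of the least correlated arrays (adjusted p = 0.0521 by limma). The part of these cells in the Raet1 differences was not tested.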

How the data were processed

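The deposited values, log2 intensities of probe sets normalised with RMA by the authors (per the submitters' processing notes, no version given), were used as they stand. Biotin-labelled RNA had been hybridised to 1 array per mouse, per the labels' protocols. The 8 arrays were grouped by genotype label, 4 and 4; replicate numbers only name arrays. The labels name no batch, and nothing beyond 1 mouse per array, so p-values measure the spread between these mice. Arrays have no depth, and their number limits the precision.

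Of 223771 probe sets 206316 had 1 symbol in an old platform annotation, 3734 several and 13721 none; 2624 old symbols were updated through a RefSeq table (GRCm38.p6). The median over single-symbol probe sets gave 19515 genes. limma 3.58.1 in R 4.3.3 (lmFit, eBayes, two-sided) was fitted over all genes and over all probe sets, with Benjamini-Hochberg adjustment and calls under 0.05, and was tested on simulated data. Alternatives varied the scaling, the summary over probe sets, the filter on dim genes, the fit, the test (a gene-by-gene unequal-variance test), the threshold, the symbols and the arrays left out. Promoters came from RefSeq.

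Members, the 16 lists (186 of 196 genes measured), tests and alternatives were chosen with earlier results of these data known. Named by rule were the members, targeted genes, up to 4 called genes per list (otherwise the 2 of smallest p), the 5 genes most like Raet1e and the neighbours; exceptions are marked.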

Additional observations from a re-analysis of the deposited data

Results flagged for a closer look

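Single arrays stood apart from the other 3 of their group in 8 of 64 groups of 4 values checked over the member genes and probe sets, by Dixon's test of the gap at the end of the group; chance gives about 5% of groups, and the checks overlap because genes and their probe sets share values. In Raet1e, Tak1/Casp8 replicate 3 had 5.89, against 6.43 to 6.48 in the others, which comes from the third probe set (5.89 as well, against 6.43 to 6.53). The second Raet1e probe set had 5.82 in Tak1/Rip3 replicate 1, against 6.64 to 6.79. In Klrk1, Tak1/Casp8 replicate 1 had 4.95, against 5.44 to 5.52, and 2 of its probe sets had an outlying Tak1/Rip3 array: the second, with 3.57 in replicate 3 (others 2.92 to 3.03), and the eleventh, with 5.85 in replicate 1 (others 6.90 to 7.09). In H60b the second probe set had 4.24 in Tak1/Rip3 replicate 2 (others 3.27 to 3.40) and the third 6.08 in Tak1/Casp8 replicate 3 (others 5.33 to 5.44). None of these arrays brought a Raet1e or Raet1d value into the range of the other group.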

How the results depend on the processing

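No paired analysis was possible because the labels tie no mouse of one group to a mouse of the other. The Raet1e difference (-2.36) kept its sign throughout, at -2.49 to -2.22 with each array left out and at -2.78 with the brightest probe set. Its groups did not overlap, so leaving out 1 array could not change the sign. Raet1d ran from -2.01 to -1.52 with each array left out, and its lowest value was -2.17 without both of the least correlated arrays (Tak1/Casp8 replicate 4 and Tak1/Rip3 replicate 2, an alternative added after seeing the data). Klrk1 moved to -0.46 with the brightest probe set. Members called were 2, and 1 when genes under the 50th percentile were left out, which removed Raet1e, or with the gene-by-gene unequal-variance test, which did not call Raet1d. The dividing cell count of 17 was 11 with brightest probe sets, 0 with the gene-by-gene unequal-variance test, 8 at an adjusted p under 0.01 and 12 to 19 with each array left out. The NK cell count of 0 was 1 with the mean over probe sets, 1 at an adjusted p under 0.10 and 0 to 2 with each array left out. All genes called (1302) were 747, 115, 404 and 2124 with brightest probe sets, the gene-by-gene unequal-variance test, and thresholds of 0.01 and 0.10, and 700 to 1344 with each array left out. Probe sets called (3651) were 5923 with trend and robust settings and 1004 to 3919 with each array left out, where 6 of 8 omissions, all but those of Tak1/Rip3 replicate 2 and Tak1/Casp8 replicate 4, gave 1580 or fewer. With the brightest probe sets Zap70 turned to 0.29 and Ripk3 to -0.036. The causes were not tested. Levels under the lower quartile limit H60b, Klrk1 and most NK cell genes.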
